A study of Rattus norvegicus with 9 samples.

Results

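Immediate early genes of the IER, BTG and GADD45 families, with midnolin (Midn), were followed by gene symbol in RNA-seq of RBL-2H3, a leukemia line of rat basophils that carries the high-affinity IgE receptor and serves as a mast cell (MC) model. The list held 10 genes of the 38490 gene rows of each sample: Ier2 (gene ID 494344), Ier3 (294235), Ier5 (498256), Ier5l (499772), Btg1 (29618), Btg2 (29619), Midn (314623), Gadd45a (25112), Gadd45b (299626) and Gadd45g (291005). Of these, 7 had at least 1 FPKM in each of the 9 samples and were tested, 2 (Ier5l and Btg2) stayed under 1 FPKM in every sample, and 1 (Gadd45g) had an empty cell in every sample. FPKM, the deposited unit as read here, is the number of sequenced fragments of a gene scaled to its length and to the library, so levels of different genes can be set side by side.

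The samples fell into 3 groups of 3, named Ctrl, DNP and PF. The DNP cells were sensitized for 12 h with 50 ng/mL anti-DNP IgE and then given the antigen DNP-HSA at 100 ng/mL for 4 h. The PF cells received the same IgE and antigen with PF, a treatment the labels do not identify, added 1 h before the antigen. The treatment field gives PF samples 1, 2 and 3 antigen for 4, 5 and 6 h, whereas the protocol field gives every sample 4 h. The Ctrl cells are called untreated in one field, and the shared protocol field lists IgE and antigen for them too, so whether they received IgE is not settled. All samples come from 1 cell line, and the labels do not say whether the 3 samples of a group were separate cultures. A legend in the study, which also covers a heatmap of expression, speaks of independent experiments without tying them to the sequenced samples, so the p-values measure the spread between these samples, which may be technical.

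Immediate early genes are switched on by signals that reach pre-formed transcription factors such as SRF and CREB, and their mRNAs are usually short-lived. In MCs, antigen that cross-links receptor-bound IgE drives calcium entry and the MAP kinases, the classical inputs of these genes. The IER proteins are small, mostly nuclear regulators, the BTG proteins recruit the CCR4-NOT deadenylase and restrain proliferation, midnolin delivers nuclear proteins to the proteasome, and the GADD45 proteins bind the kinase MAP3K4, PCNA and cell cycle kinases during stress.

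The samples were examined with marker lists of MCs and of other cell types. No basophil list was used, so the markers do not separate MCs from basophils. Of 10 MC markers, 8 had values and all 8 were at 1 FPKM or more in every sample, their sum running from 2456 to 2610 FPKM over the 3 groups; Tpsb2 and Tpsab1 had no value. The tissue label names peripheral blood. The B cell, macrophage, neutrophil, erythroid and fibroblast or epithelial lists, however, each summed to at most 2.07 FPKM in any sample. Mpo, Elane, S100a8, S100a9, Cd79b, Ms4a1 and Marco had no value. The neutrophil sum therefore rests on 1 of 5 markers and the B cell sum on 2 of 4. Among T cell markers Cd3e was at 6.74 to 9.52 FPKM, and the other 4 stayed under 1 FPKM in every sample. The summed FPKM per sample ran from 573023 to 591539 in the Ctrl and DNP samples and from 610206 to 630069 in the PF samples, and the read depth is not known, since FPKM keeps no counts.

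The sequence before the transcription start is shown for 4 members, a choice made after their values were seen: Ier2, which rose in PF, Btg1 and Gadd45a, which fell in PF, and Btg2, which had almost no mRNA. Each is the 250 bases before the start that RefSeq gives for the GRCr8 assembly, read 5′ to 3′ on the gene's strand. Capitals mark a cAMP response element, TGACGTCA, or its core, TGACG or the reverse CGTCA, the letters bound by CREB and ATF factors. The windows are chr19:40399123-40399372 (+ strand) for Ier2, chr13:48087691-48087940 (- strand) for Btg2, chr7:33227899-33228148 (+ strand) for Btg1 and chr4:97486800-97487049 (- strand) for Gadd45a.
Ier2: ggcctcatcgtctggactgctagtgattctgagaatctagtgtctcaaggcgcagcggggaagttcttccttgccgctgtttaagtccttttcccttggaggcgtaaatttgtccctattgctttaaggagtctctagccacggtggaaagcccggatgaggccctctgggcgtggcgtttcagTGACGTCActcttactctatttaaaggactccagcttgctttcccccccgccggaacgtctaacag
Btg2: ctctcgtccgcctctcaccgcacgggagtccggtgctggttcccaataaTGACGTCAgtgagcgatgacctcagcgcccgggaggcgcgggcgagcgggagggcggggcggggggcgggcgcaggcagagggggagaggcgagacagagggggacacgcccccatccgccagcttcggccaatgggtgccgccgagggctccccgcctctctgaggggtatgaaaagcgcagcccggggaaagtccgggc
Btg1: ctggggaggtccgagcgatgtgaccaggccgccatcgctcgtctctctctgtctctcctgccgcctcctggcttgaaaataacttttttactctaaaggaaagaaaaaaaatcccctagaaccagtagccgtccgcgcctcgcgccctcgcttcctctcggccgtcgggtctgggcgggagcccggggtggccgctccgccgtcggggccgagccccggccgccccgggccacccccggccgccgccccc
Gadd45a: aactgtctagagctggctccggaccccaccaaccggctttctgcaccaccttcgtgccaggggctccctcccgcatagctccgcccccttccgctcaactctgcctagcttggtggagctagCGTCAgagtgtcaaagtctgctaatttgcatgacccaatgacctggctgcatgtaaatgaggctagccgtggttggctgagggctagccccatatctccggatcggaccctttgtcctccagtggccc

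Ier2 and Btg2 were the members with the full element, at 59 to 66 bases before the start in Ier2 and at 194 to 201 bases in Btg2. Over the 33465 promoter windows of the same length, 1.59% held TGACGTCA on either strand and 18.2% held TGACG, which is counted again within each full element. Gadd45a had a single TGACG, on the opposite strand at 124 to 128 bases before the start, and Btg1 had none. Windows were present for 9 members, and there was none for Ier3. None of the 9 held the AP-1 letters TGANTCA, found in 6.34% of all windows, or a CArG box, the site of SRF, found in 1.5%. Midn had an NF-kB motif, on the opposite strand at 54 to 63 bases before its start, a motif found in 3.54% of all windows. The shares are over all windows, not matched for base content. G and C made up 51.2% of the median window, and 53.2% (Ier2) to 72% (Btg2) in the members. The motifs named here are matches of letters in short windows and say nothing about whether a factor was bound.

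Gadd45a, whose product links stress signals to MAP3K4 and to cell cycle arrest, was by far the most abundant member. Its Ctrl samples held 1921, 1877 and 1877 FPKM, its DNP samples 1528, 1456 and 1605 FPKM and its PF samples 900.2, 954 and 1003 FPKM. The 3 groups did not overlap, with Ctrl highest and PF lowest. Counted from the top of the 18006 genes with a value, Gadd45a ranked 44 in Ctrl, 52 in DNP and 116 in PF. Gadd45a held 0.323% ± 0.00696 of the summed FPKM in Ctrl, 0.265% ± 0.0108 in DNP and 0.154% ± 0.00944 in PF (SD, n = 3).

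Gadd45b, the family member best known as an NF-kB and cytokine-responsive gene, was far lower. Its values were 34.5, 36.6 and 27.5 FPKM in Ctrl, 42.5, 40.2 and 38.6 FPKM in DNP and 26.9, 23.8 and 20.7 FPKM in PF. The groups did not overlap, with DNP highest and PF lowest, though the lowest Ctrl sample lay within 1 FPKM of the highest PF sample. The ratio of Gadd45a to Gadd45b was 51.2 to 68.2 in the Ctrl samples, 35.9 to 41.6 in the DNP samples and 33.5 to 48.5 in the PF samples. The Ctrl ratios therefore lay above all others, and the DNP and PF ratios overlapped.

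Btg1, an antiproliferative partner of CCR4-NOT that is typical of resting cells, was the next member by level. It had 157.8, 148.8 and 158.4 FPKM in Ctrl, 157.4, 145.5 and 153.0 FPKM in DNP and 79.1, 88.7 and 88.5 FPKM in PF. Ctrl and DNP overlapped, and every PF sample was below both. Btg2, the p53-responsive paralog, had 0.03 FPKM in 1 Ctrl sample and was listed at 0 in the other 8.

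Ier2, a nuclear protein and classical serum-response gene, was at 68.9, 79.3 and 66.6 FPKM in Ctrl, at 84.9, 79.9 and 80.0 FPKM in DNP and at 103.7, 111.4 and 97.4 FPKM in PF. The groups did not overlap, and the order was Ctrl, DNP, PF, although the highest Ctrl sample came within 1 FPKM of the lowest DNP sample. Ier3, also called IEX-1, a regulator of cell survival and of ERK signalling, was at 43.4, 41.4 and 36.6 FPKM in Ctrl, 44.8, 39.6 and 44.6 FPKM in DNP and 51.3, 47.0 and 45.7 FPKM in PF. Its Ctrl and DNP values overlapped, and all PF values were above them. Ier5, a cofactor of the heat shock factor HSF1, was at 50.2, 51.2 and 47.2 FPKM in Ctrl, 52.5, 47.8 and 52.2 FPKM in DNP and 33.6, 36.4 and 35.8 FPKM in PF. Here too Ctrl and DNP overlapped, but the PF values were the lowest. Ier5l, the Ier5-like paralog, had 0.04 FPKM in 1 Ctrl and 1 DNP sample and was listed at 0 in the other 7.

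Midn, the gene of midnolin, was at 43.4, 46.4 and 41.9 FPKM in Ctrl, 52.23, 53.02 and 55.55 FPKM in DNP and 22.7, 22.3 and 22.7 FPKM in PF. The DNP samples were above and the PF samples below every Ctrl sample. Of the 7 tested members Midn had the smallest spread in PF, with an SD of 0.229 FPKM (n = 3).

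**Figure D1:**
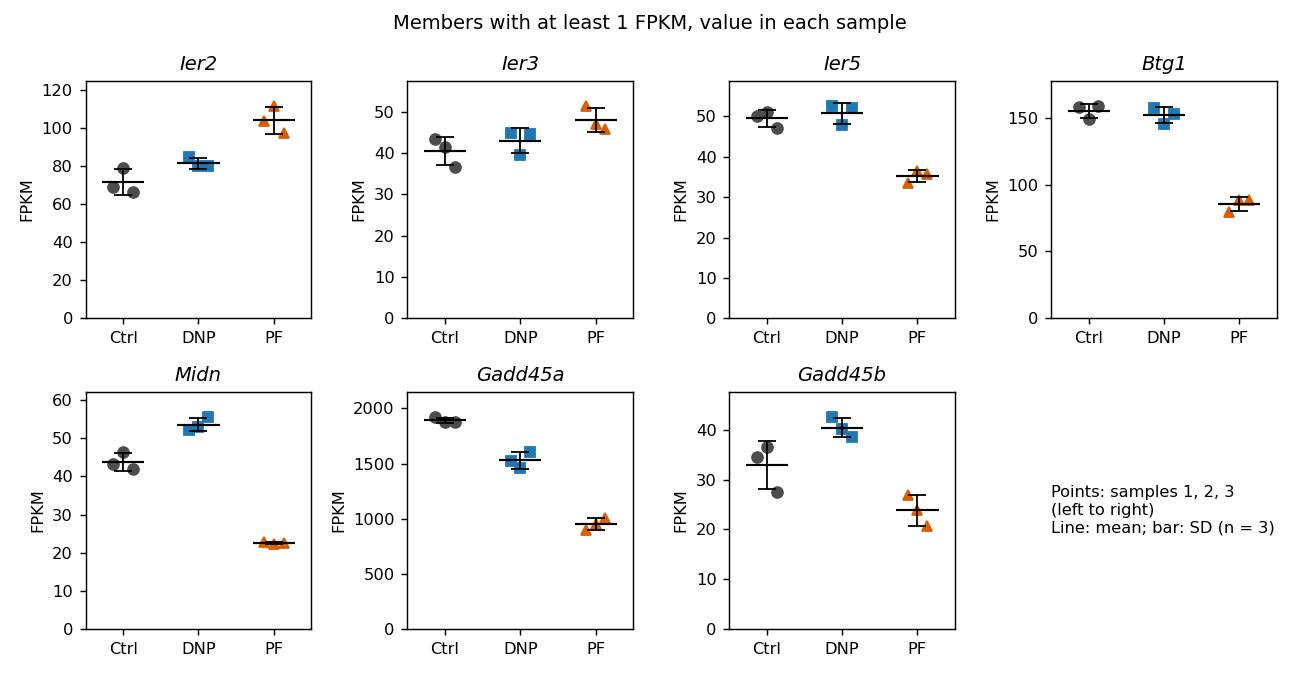
FPKM (vertical axes, from 0) of the 7 tested members in the Ctrl, DNP and PF samples; points are samples 1 to 3 from left to right, lines the mean and bars the SD (n = 3). PF points lie below all others for Ier5, Btg1, Midn, Gadd45a and Gadd45b and above all others for Ier2 and Ier3.

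By level, the order in Ctrl was Gadd45a, Btg1, Ier2, Ier5, Midn, Ier3 and Gadd45b, and of these neighbours only Midn and Ier3 overlapped between samples. In DNP Midn (53.6 ± 1.73 FPKM, SD, n = 3) stood before Ier5 (50.8 ± 2.61 FPKM, SD, n = 3), which it overlapped, and Ier3 overlapped Gadd45b. In PF the order was Gadd45a, Ier2, Btg1, Ier3, Ier5, Gadd45b and Midn, with an overlap between Gadd45b (23.8 ± 3.11 FPKM, SD, n = 3) and Midn (22.6 ± 0.229 FPKM, SD, n = 3). Btg1 was above Ier2 in every Ctrl and DNP sample, and Ier2 (104.2 ± 7.04 FPKM, SD, n = 3) was above Btg1 (85.4 ± 5.49 FPKM, SD, n = 3) in every PF sample. The ratio of Ier2 to Midn was 1.44 to 1.71 in the Ctrl and DNP samples and 4.30 to 5.00 in the PF samples.

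The comparison of DNP with Ctrl asks how these genes stood after 4 h of antigen, together with IgE if the Ctrl cells had none. No earlier time was sampled, so whether a member had changed before 4 h was not tested. Midn and Gadd45b rose modestly, Gadd45a fell, and no member's log2 fold change was beyond 0.31 in size. The test was limma's, run on log2(FPKM + 1), with Benjamini-Hochberg adjustment over all 10392 genes tested. A gene is called where this adjusted p is at most 0.05. In this comparison 3 of the 7 tested members were called, or 42.9%, against 29.2% of all genes tested, and nothing particular to the members is read from this. In such bulk samples, fewer cells of a kind and less RNA per cell cannot be told apart. Of the 3, 2 were higher and 1 was lower, while 14.7% of all genes were called higher and 14.4% lower. The median log2 fold change of the 7 was 0.09, that of all genes tested -0.01.

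Midn rose from 43.9 ± 2.33 FPKM in Ctrl to 53.6 ± 1.73 FPKM in DNP (SD, n = 3), and limma gave a log2 fold change of 0.28 ± 0.0468 (SE) with an adjusted p of 0.00332. Gadd45a decreased from 1891 ± 25.5 to 1530 ± 74.8 FPKM (SD, n = 3), and limma gave a log2 fold change of -0.31 ± 0.0426 (SE) with an adjusted p of 0.00153. Both calls held under every alternative run. Gadd45b rose from 32.9 ± 4.76 to 40.4 ± 1.98 FPKM (SD, n = 3), and limma gave a log2 fold change of 0.30 ± 0.0945 (SE) with an adjusted p of 0.0449. That call was weak. It was lost with all 3 groups in the fit (limma adjusted p = 0.0584), without the filter on low values (0.118), without the trend (0.0768), and without Ctrl sample 1 (0.056), DNP sample 1 (0.123), DNP sample 2 (0.0986) or DNP sample 3 (0.0679). Without Ctrl sample 3, the lowest, its log2 fold change was 0.18.

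Ier2 went from 71.6 ± 6.76 to 81.6 ± 2.87 FPKM (SD, n = 3), a log2 fold change of 0.19 with a 95% interval of 0.04 to 0.33 that just missed the call (limma adjusted p = 0.0543). It passed without Ctrl sample 2 (log2 fold change 0.26, limma adjusted p = 0.00658), with both other scalings (0.0481 and 0.0308) and with at least 1 FPKM asked of every sample (0.0428). Ier3, Ier5 and Btg1 did not pass, with log2 fold changes of 0.09 (95% interval -0.08 to 0.25), 0.04 (-0.08 to 0.15) and -0.03 (-0.12 to 0.07). For Ier5 and Btg1 the whole interval lay within 0.15 of 0 on this scale. Where groups of 3 did not overlap, as was so for Ier2, Midn, Gadd45a and Gadd45b here, the two-sided exact permutation test gave p = 0.1, the smallest value that 3 against 3 allows.

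The comparison of PF with DNP asks what PF changed in antigen-treated cells. Midn, Btg1, Gadd45b, Gadd45a and Ier5 fell, and Ier2 rose. Of the 7 tested members 6 were called, 5 lower and 1 higher, against 48.8% of all 10329 genes tested, 30.7% lower and 18.1% higher. The median log2 fold change was -0.68 for the 7 members and -0.04 for all genes tested. The PF samples have the larger FPKM sums, and the split of all calls moved with the scaling: 37.1% of the calls were higher as deposited, 50.8% with median ratio scaling and 16.8% with each sample scaled to the mean sum, where the median of all genes was -0.13.

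Midn had the largest difference of the members, falling from 53.6 ± 1.73 to 22.6 ± 0.229 FPKM (SD, n = 3), and limma gave a log2 fold change of -1.21 ± 0.0386 (SE) with an adjusted p of 2.05e-07. Of all genes tested, 1.03% had a lower log2 fold change. Btg1 fell from 152 ± 6.00 to 85.4 ± 5.49 FPKM (SD, n = 3), and limma gave a log2 fold change of -0.83 ± 0.0509 (SE) with an adjusted p of 3.75e-06. Gadd45b fell from 40.4 ± 1.98 to 23.8 ± 3.11 FPKM (SD, n = 3), and limma gave a log2 fold change of -0.75 ± 0.0834 (SE) with an adjusted p of 1.20e-04. Gadd45a fell from 1530 ± 74.8 to 952 ± 51.2 FPKM (SD, n = 3), and limma gave a log2 fold change of -0.68 ± 0.0498 (SE) with an adjusted p of 9.48e-06. Ier5 fell from 50.8 ± 2.61 to 35.3 ± 1.5 FPKM (SD, n = 3), and limma gave a log2 fold change of -0.51 ± 0.0492 (SE) with an adjusted p of 4.84e-05.

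Ier2 went the other way, from 81.6 ± 2.87 to 104.2 ± 7.04 FPKM (SD, n = 3), and limma gave a log2 fold change of 0.35 ± 0.0509 (SE) with an adjusted p of 5.80e-04. A higher value was found in 4.14% of all genes tested. Its log2 fold change was 0.41 with median ratio scaling and 0.25 with scaling to the mean sum, and it was called with both. Ier3 went from 43.0 ± 2.95 to 48.0 ± 2.91 FPKM (SD, n = 3), a log2 fold change of 0.16 with a 95% interval of 0.02 to 0.29 (limma adjusted p = 0.0577). Its value was 0.22 with median ratio scaling (limma adjusted p = 0.0192) and 0.06 with scaling to the mean sum (0.431), so whether Ier3 is called depends on the scaling. It also passed without PF sample 3, the lowest PF sample (log2 fold change 0.19, limma adjusted p = 0.0441), and with at least 1 FPKM asked of every sample (0.0491). The calls of the other 6 members held with both scalings.

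PF sample 1 is the sample to which both label fields give 4 h of antigen, the time of the DNP samples. With this sample alone against the 3 DNP samples, all 6 called members kept their direction and passed, with log2 fold changes of -1.20 for Midn, -0.93 for Btg1, -0.76 for Gadd45a, -0.58 for Ier5, -0.57 for Gadd45b and 0.34 for Ier2. Ier3 passed as well (log2 fold change 0.25, limma adjusted p = 0.0436). In this fit the lone PF sample is assumed to vary like the DNP samples.

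**Figure D2:**
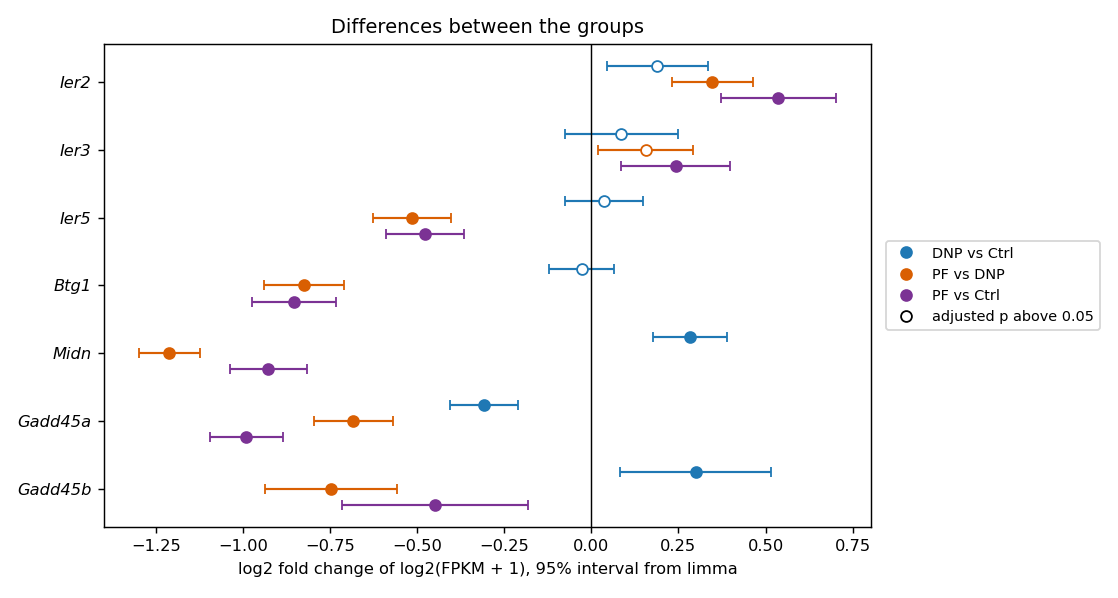
Log2 fold change (horizontal axis, on log2(FPKM + 1)) of the 7 tested members in DNP vs Ctrl, PF vs DNP and PF vs Ctrl, with 95% intervals from limma; filled points have an adjusted p of at most 0.05 and open points do not. Midn lies at 0.28 in DNP vs Ctrl and at -1.21 in PF vs DNP, whereas Ier2 is above 0 in all 3 comparisons.

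The comparison of PF with Ctrl sets the antigen and PF together against the control cells, with the same open point about IgE. It shares its samples with the other comparisons. All 7 tested members were called, 5 lower and 2 higher, against 57.7% of the 10361 genes tested, 34.6% lower and 23.1% higher. Of the calls over all genes 40.0% were higher as deposited, 51.3% with median ratio scaling and 26.7% with scaling to the mean sum. The median log2 fold change was -0.48 for the members and -0.05 for all genes tested. Gadd45a fell from 1891 ± 25.5 FPKM in Ctrl to 952 ± 51.2 FPKM in PF (SD, n = 3), and limma gave a log2 fold change of -0.99 ± 0.0464 (SE) with an adjusted p of 1.45e-06. Midn had a log2 fold change of -0.93 ± 0.0481 (SE, limma adjusted p = 2.28e-06) and Btg1 of -0.85 ± 0.0526 (SE, limma adjusted p = 5.06e-06). Ier5 had a log2 fold change of -0.48 ± 0.0493 (SE, limma adjusted p = 7.10e-05). Gadd45b had -0.45 ± 0.117 (SE, limma adjusted p = 0.0103), a call that was lost with PF sample 1 alone (log2 fold change -0.27, limma adjusted p = 0.182).

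Ier2 rose by a log2 fold change of 0.54 ± 0.0724 (SE, limma adjusted p = 3.17e-04), from 71.6 ± 6.76 to 104.2 ± 7.04 FPKM (SD, n = 3). Ier3 rose by 0.24 ± 0.069 (SE, limma adjusted p = 0.0157), but not with scaling to the mean sum (log2 fold change 0.16, limma adjusted p = 0.0748) and not without PF sample 1 (0.19, limma adjusted p = 0.0592). Side by side, Midn and Gadd45b were highest in DNP and lowest in PF. Gadd45a was lower in DNP than in Ctrl and lower again in PF. Ier5 and Btg1 differed in the PF samples and not detectably between DNP and Ctrl.

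**Figure D3:**
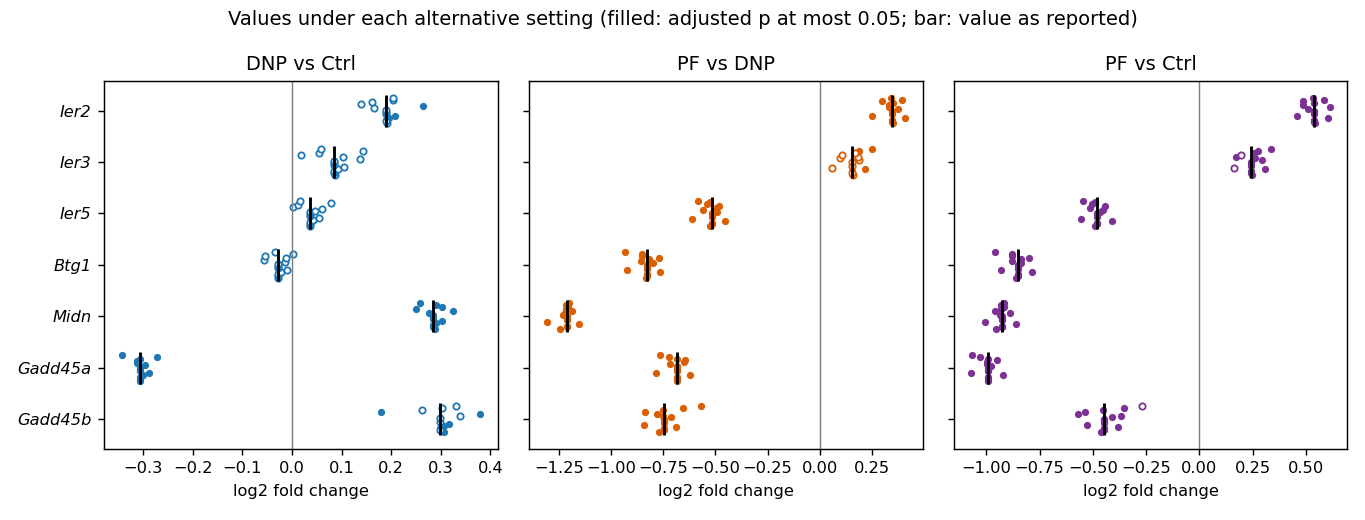
Log2 fold changes (horizontal axes) of the 7 tested members under each alternative setting, with filled points at an adjusted p of 0.05 or less, open points above it, and a bar at the value as reported. The open points gather at Ier2, Ier3, Ier5, Btg1 and Gadd45b in DNP vs Ctrl and at Ier3 in PF vs DNP.

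Midn was the 1 member with a called log2 fold change of at least 1 in size, and the genes with the most similar pattern over the 9 samples were sought among 10504 genes with at least 1 FPKM in 3 or more samples. Likeness was the root mean square difference of log2(FPKM + 1) after each gene's own mean was subtracted, where 0 is identity. The closest 3 were Frmd4b (0.0631), Fam161a (0.0711) and Sgpp1 (0.0715), the last encoding a sphingosine-1-phosphate phosphatase. Frmd4b had 39.9 ± 1.07, 49.2 ± 0.963 and 20.8 ± 0.833 FPKM in Ctrl, DNP and PF (SD, n = 3), close to Midn in level as well. Sgpp1 was at 23.4 ± 0.457, 28.1 ± 0.352 and 12.5 ± 0.715 FPKM (SD, n = 3) in the same order, and Fam161a at 4.98 ± 0.255, 6.25 ± 0.484 and 2.05 ± 0.229 FPKM (SD, n = 3). Among the members themselves, Btg1 and Gadd45a were the closest pair (0.121), followed by Ier2 and Ier3 (0.154), and Ier2 and Midn were the most distant (0.717). Gadd45a and Gadd45b, of the same family, were at 0.318.

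Other genes of the pathways these members act in were counted from 6 lists, with values as deposited. The lists were not counted again under the other scalings. Small differences in the PF comparisons may therefore depend on the scaling. That of Ier3 in PF vs DNP was 0.16 as deposited and 0.06 with scaling to the mean sum. Beside the lists stand the shares of all genes called, 29.2% in DNP vs Ctrl, 48.8% in PF vs DNP and 57.7% in PF vs Ctrl. The other immediate early genes, 35 in number, had the largest share called of the 6 in each comparison, at 85.7%, 83.3% and 86.2% in that order. Of the genes tested 3, 3 and 4 were under 1 FPKM in at least 1 compared sample. Without them 21 of 25 (16 higher, 5 lower), 23 of 27 (9 higher, 14 lower) and 21 of 25 (14 higher, 7 lower) were called. In DNP vs Ctrl 19 of the 28 tested were called higher and 5 lower, with a median log2 fold change of 0.31, and Egr1 (5.2) and Fosb (4.50) were the highest, Nfkbiz (-0.69) and Klf10 (-0.52) the lowest. In PF vs DNP 10 of 30 were higher and 15 lower, with a median of -0.25. Klf2, a quiescence factor, was the highest there with a log2 fold change of 2.2, from 0.657 ± 0.237 FPKM in DNP to 6.59 ± 0.682 FPKM in PF (SD, n = 3). All 3 DNP samples were under 1 FPKM, so Klf2 met the filter through the PF samples alone, where it is high. Rhob, a small GTPase, rose by 1.42. The lowest were Egr3 (-2.49) and Maff (-1.73). In PF vs Ctrl 18 of 29 were higher and 7 lower, from Egr1 (5.61) and Fosb (4.84) to Per1 and Klf10 (-0.85 each). Of the 7 tested members, 5 were lower in that comparison.

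Of 18 tested genes of p53 and its targets, the pathway that also induces Gadd45a and Btg2, 8 were called lower and 1 higher in DNP vs Ctrl. The one that rose was Mdm2, the ubiquitin ligase of p53, from 54.7 ± 2.79 to 79.3 ± 3.98 FPKM (SD, n = 3), a log2 fold change of 0.53. The lowest were Tp53inp1 (-0.59), an autophagy and stress protein, and Bbc3 (-0.51), the death factor PUMA. In PF vs DNP 8 were again lower and 1 higher, with Tp53inp1 (-0.89) and the cyclin Ccng2 (-0.61) lowest and Bbc3 (0.18) higher. In PF vs Ctrl 10 were lower and 1, Mdm2 (0.23), was higher, and Tp53inp1 (-1.48) and Ccng2 (-1.09) were lowest. The medians of the list were -0.14, -0.08 and -0.19 in the 3 comparisons. The shares called were 50.0%, 50.0% and 61.1%, the last 2 close to those of all genes, of which 14.4%, 30.7% and 34.6% were lower.

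Among 15 GADD45 partners and stress MAP kinases, 3 of 12 tested were higher and 2 lower in DNP vs Ctrl. Map2k3, a kinase of p38, rose by a log2 fold change of 0.44 and Mapk14, p38 itself, by 0.22, while Cdkn1a, the inhibitor p21, had -0.32 and Map2k7 -0.22. In PF vs DNP 7 of 13 were lower and 1 higher, with Map2k3 at -0.57 and Cdkn1a at -0.52, and Mapk12 higher by 0.66 at levels of 1.43 ± 0.325 and 2.83 ± 0.372 FPKM (SD, n = 3). In PF vs Ctrl 4 of 12 were lower and 2 higher, from Cdkn1a (-0.85) and Map2k7 (-0.44) to Mapk12 (1.04) and Mapk8 (0.24). Mapk12 was at 0.87, 1.09 and 0.63 FPKM in Ctrl, so that it was tested in that comparison because of its PF samples, and without it 5 of 11 were called. The shares called over the list were 41.7%, 61.5% and 50.0%, the last below that of all genes. Cdkn1a, which is in the p53 list as well, was at 130.9 ± 2.56 FPKM in Ctrl, 104.4 ± 4.70 FPKM in DNP and 72.4 ± 5.15 FPKM in PF (SD, n = 3), the same order as Gadd45a.

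The BTG and TOB relatives with the CCR4-NOT deadenylase had 2 of 18 tested genes higher and 4 lower in DNP vs Ctrl, 3 higher and 8 lower in PF vs DNP, and 3 higher and 8 lower in PF vs Ctrl. These are 33.3%, 61.1% and 61.1%, the first and the last close to the shares of all genes. The relatives changed in both directions. Btg3 was the highest in DNP vs Ctrl (0.41, beside Cnot6l at 0.17), and Tob2 the lowest (-0.60, beside Pan3 at -0.28). Tob2 fell further in PF, from 13.2 ± 0.197 to 8.82 ± 0.381 FPKM (SD, n = 3), a log2 fold change of -0.53, and Cnot4 had -0.67. Tob1 instead rose in PF vs DNP by 0.81, from 11.6 ± 0.998 to 21.0 ± 0.399 FPKM (SD, n = 3). Prmt1 was at 0.11 as deposited, smaller than the difference of Ier3, whose call depended on the scaling. Against Ctrl, Tob1 (0.70) and Pabpc1 (0.16) were the highest in PF and Tob2 (-1.13) and Cnot4 (-0.81) the lowest.

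The upstream factors and kinases had 4 of 17 tested genes higher and 2 lower in DNP vs Ctrl, 2 higher and 5 lower in PF vs DNP, and 2 higher and 6 lower in PF vs Ctrl. The shares of 35.3%, 41.2% and 47.1% were below those of all genes in both PF comparisons. Creb1, 1 of the CREB and ATF factors, was higher in DNP than in Ctrl (log2 fold change 0.49). It was lower in PF than in DNP (-0.71) and lower in PF than in Ctrl (-0.22). Its levels were 12.9 ± 0.568, 18.5 ± 1.22 and 10.9 ± 0.726 FPKM in Ctrl, DNP and PF (SD, n = 3). Whether it acts on any member was not tested. Elk3, a partner of SRF, had 0.42 and then -0.36, and Elk4 had -0.28 and then 0.21. Crtc2 was at -0.15 in DNP vs Ctrl, Mapk3 at 0.15 in PF vs DNP, and Rps6ka4 (0.41), Srf (0.32) and Rps6ka3 (-0.27) were the remaining extremes of PF vs Ctrl. The PP2A subunits and HSF1, partners of IER proteins, had 1 of 7 tested genes higher and 1 lower in DNP vs Ctrl, 1 and 2 in PF vs DNP, and 2 and 2 in PF vs Ctrl. These are 28.6%, 42.9% and 57.1%, the first and the last close to the shares of all genes and the second below, in a list of 7 tested genes. Their called log2 fold changes ran from -0.38 for Ppp2r2d in PF vs Ctrl to 0.31 for Ppp2r1b in DNP vs Ctrl, with Ppp2ca and Ppp2cb at -0.16 and 0.16 in PF vs DNP.

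**Figure D4:**
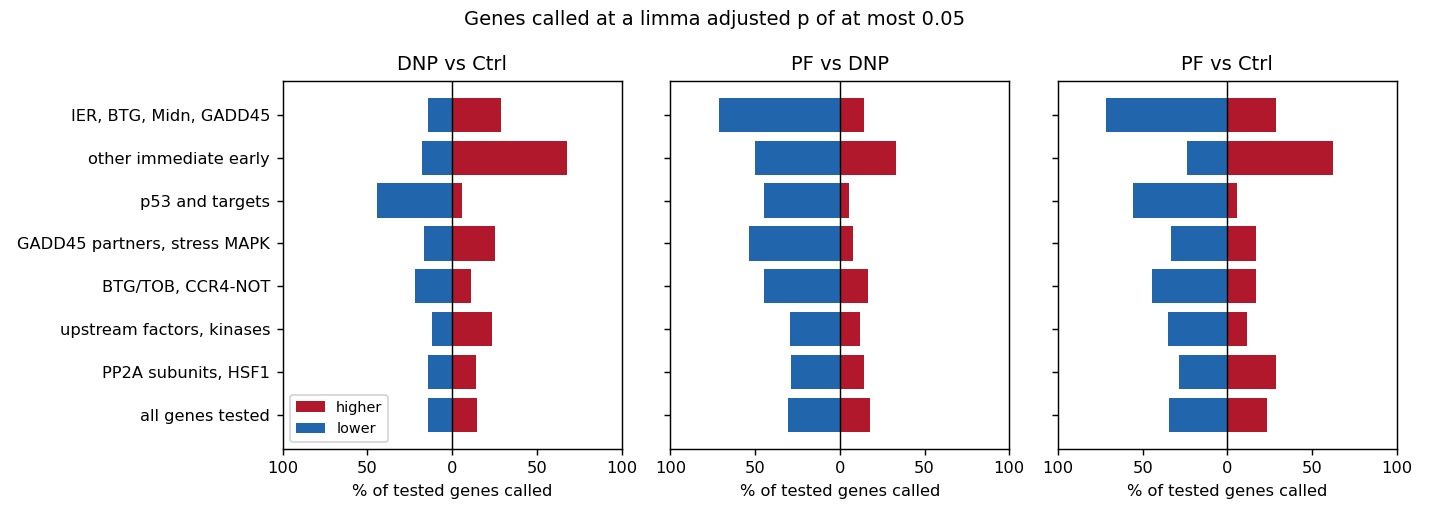
Percent of tested genes called higher (right of 0) and lower (left of 0) by limma (adjusted p of 0.05 or less) in each list and over all genes tested, for DNP vs Ctrl, PF vs DNP and PF vs Ctrl. In PF vs DNP the members have 5 of 7 lower, against 30.7% of all genes tested.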

How the data were processed

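RNA-seq values of 9 RBL-2H3 samples were used, 3 each of Ctrl, DNP and PF. By the study's methods and the submitters' processing notes, reads were filtered with SOAPnuke, mapped with HISAT2 2.0.4 and quantified by RSEM 1.2.12 on Bowtie2 2.2.5 alignments against rn6; the annotation is not given in the sources used here. The authors deposited 1 value per gene and sample without naming its unit, and it was read as FPKM, since it has decimals and sums to different totals; this rests on the values alone. Of 38490 rows, 20484 have no value in any sample. Rows were joined by gene ID.

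Each comparison was fitted on its own 6 samples with limma 3.58.1 in R 4.3.3 (lmFit, then eBayes using a trend). The input was log2(FPKM + 1) of the genes that reached 1 FPKM in 3 or more of the 6. Changes of low genes come out too small on this scale. The count-based test of the study's methods was not used, since no counts are held here. The fit was tested on simulated data with independent noise in each sample. Such data do not bear on whether the samples of a group were separate cultures. Members, lists and alternatives were chosen with earlier results of these data known. In each list, the 2 highest and 2 lowest called genes per comparison are named. Alternatives were another pseudocount (0.1), filter, scaling, trend or block, all 3 groups in the fit, each sample left out and PF sample 1 alone. The promoter windows are RefSeq's, on GRCr8, and were matched by symbol. No member met the rule for printing one (called in DNP vs Ctrl with a log2 fold change of at least 0.5 in size), so those shown were chosen with their values in view. Proteins were not analysed here.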

Additional observations from a re-analysis of the deposited data

How the results depend on the processing

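No alternative reversed a called difference of a member, and none moved the number of members called by more than 1.5 times: it was 2 to 4 in DNP vs Ctrl, 6 or 7 in PF vs DNP and 6 or 7 in PF vs Ctrl. Midn, Gadd45a, Btg1 and Ier5 kept their calls in PF vs DNP and in PF vs Ctrl under every alternative run, Ier2 and Gadd45b did so in PF vs DNP, and Midn and Gadd45a did so in DNP vs Ctrl. The calls that changed were those of Gadd45b and Ier2 in DNP vs Ctrl, of Ier3 in PF vs DNP and PF vs Ctrl, and of Gadd45b in PF vs Ctrl, with the values given above; the cause was not tested. Samples with the same replicate number share only that number: after the group means were subtracted, their values correlated across genes by -0.0822 to 0.189. With the replicate number as a block, the calls over all genes were 2697, 4675 and 6009 in DNP vs Ctrl, PF vs DNP and PF vs Ctrl, and among the members only Ier3 in PF vs DNP changed its side (limma adjusted p = 0.0357). Over the fits that left out 1 sample, the log2 fold change in PF vs DNP ran from -1.23 to -1.19 for Midn and from 0.30 to 0.39 for Ier2. Ier5l and Btg2 had too few values above 0 to be given a result. The planned count-based alternatives were not run, since the values were read as FPKM and no counts are held here.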
